A study of Mus musculus with 5 samples.

Results

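The 10 genes described here encode transcription factors of the hair matrix and hair shaft: Msx1, Msx2, Dlx3, Foxn1, Gata3, Lhx2, Foxq1, Prdm1, Sox21 and Vdr. They were chosen by symbol, through their Entrez identifiers, from the 24100 genes of the deposited count table. All 10 were found, and all 10 were among the 16953 genes that passed a filter on low counts. Every one of them had at least 48 counts in every library. RNA came from flow-sorted skin cells of the back of males on a mixed CD1 and C57Bl6J background and was sequenced as poly-A selected, non-stranded libraries. Quiescent melanocyte stem cells (McSC), the unpigmented reserve cells of the follicle's pigment lineage, carried a Dct-eGFP reporter and were taken in the second resting phase (telogen) at postnatal day 60 (replicate 1) and 62 (replicate 2), each library from 4 pooled males. Melanocytes carried the Dct-eGFP and a Lef1-RFP reporter and were taken at postnatal day 10 in the growth phase (full anagen), from 3, 2 and 4 pooled males (replicates 1 to 3). In both groups the gate took Dct-eGFP-positive cells with integrin α6 at medium to low level. It was set to exclude endothelial, blood and mesenchymal cells by CD31, CD45 and CD140a, and also Sca1+ and CD34+ cells. The melanocyte gate also required Lef1-RFP and c-Kit. Lef1 is a transcription factor of the hair matrix as well as of the pigment lineage. Dct is a melanoblast gene that encodes an enzyme of melanin synthesis. Age, hair cycle stage, reporters and gate differed together and cannot be told apart in any comparison below.

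The hair shaft is built from matrix cells at the base of the growing follicle, which divide, leave the cell cycle and mature into the cortex, cuticle and medulla of the shaft and the inner root sheath around it. Signals of the BMP and WNT pathways start this maturation, and several of the transcription factors considered here act with or below those signals in follicle epithelium. Pigment cells sit among the matrix cells in the growing follicle and pass melanin to them, whereas in the resting follicle the matrix is absent and McSC lie in the bulge and secondary germ. In the mouse, loss of Foxn1 gives the nude coat, loss of Foxq1 the satin coat, and loss of Msx2, Sox21 or Vdr leads to loss of hair.

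Total counts ranged from 17512381 (melanocyte replicate 3) to 124530834 (quiescent McSC replicate 2). Levels below are depth-normalised read counts (CPM) after TMM scaling, and a count of 3 stood for 0.0241 to 0.171 CPM before that scaling. Of all genes tested, 29.1% were called higher and 26.2% lower in melanocytes at an adjusted p under 0.05 (edgeR quasi-likelihood test, Benjamini-Hochberg), with a median log2 fold change of 0.03. With library size as the only scaling, 63.7% of the calls were toward melanocytes, against 52.6% with TMM, and that median was 0.26. Genes of the pigment lineage were present in every library: the 9 markers Dct, Tyr, Tyrp1, Pmel, Mlana, Mitf, Sox10, Kit and Pax3 summed to 20249 to 21684 CPM in the quiescent libraries and 3021 to 19250.4 CPM in the melanocyte libraries. The lowest of these sums, 3021 CPM, was that of melanocyte replicate 1. Genes of other skin cells were present too. Hair shaft keratins summed to 3.22 to 22.1 CPM in the quiescent libraries and 829 to 1403 CPM in the melanocyte libraries, inner root sheath genes to 5.60 to 28.7 CPM in the quiescent libraries and 2996 to 4352 CPM in the melanocyte libraries, and dermal papilla and fibroblast markers to 27.03 to 62.9 CPM in the quiescent libraries and 1614 to 4548 CPM in the melanocyte libraries. The libraries are bulk samples, so fewer cells of a type and less RNA per cell cannot be told apart.

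All 10 transcription factor genes were called higher in melanocytes, beside 29.1% of all genes tested called in that direction and 55.4% called in either. A called difference of at least 2-fold was found for 9 of them, Lhx2 lying just under that line, and for 20.3% of all genes tested. For each of them every melanocyte library lay above both quiescent McSC libraries, which held for 38.1% of all genes tested. Log2 fold changes ran from 1.00 (Lhx2) to 7.02 (Dlx3), with a median of 4.12. The difference exceeded 10-fold for 6 genes (Dlx3, Foxq1, Msx1, Msx2, Sox21 and Foxn1) and was under 4-fold for 3 (Gata3, Vdr and Lhx2). Prdm1 stood between them at 8.71-fold. The summed hair shaft keratins and inner root sheath genes given above were also higher in every melanocyte library than in both quiescent McSC libraries. The part of RNA from hair follicle epithelium in the differences of the 10 genes was not tested.

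**Figure D1:**
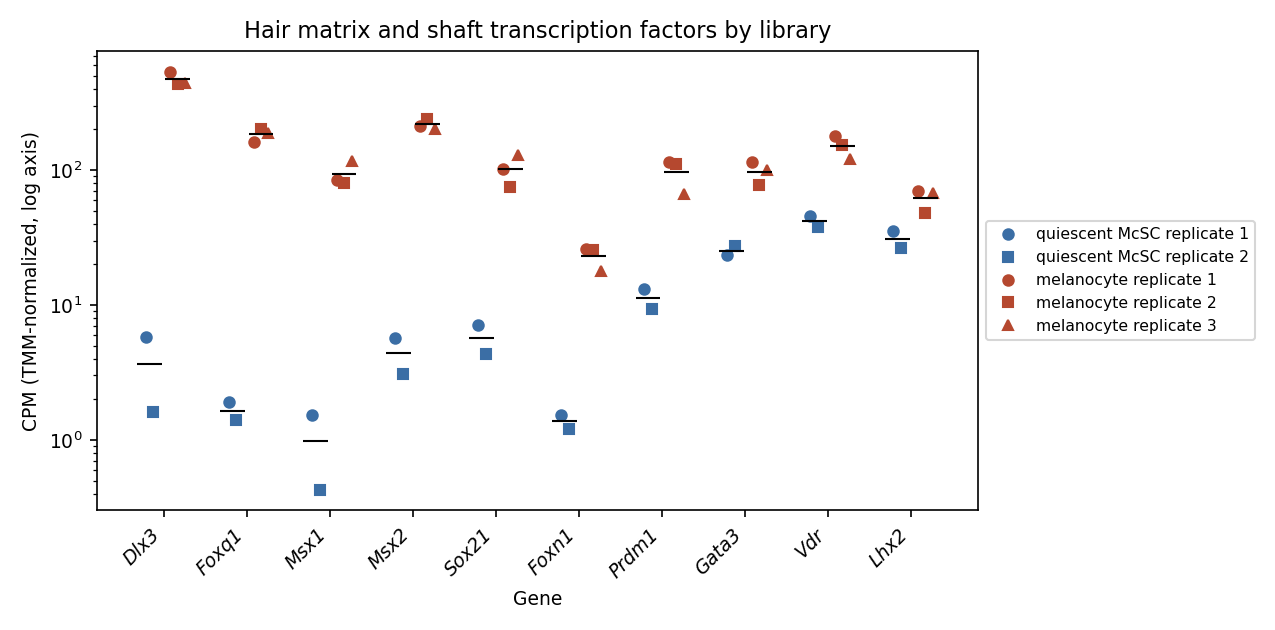
Level of each transcription factor gene in each library, in TMM-normalized CPM on a log axis, with blue points for the 2 quiescent McSC libraries, red points for the 3 melanocyte libraries and black lines for group means. Genes are ordered by fold change. The groups do not overlap for any gene, and the gap narrows from Dlx3 on the left to Lhx2 on the right.

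The homeobox genes Msx1, Msx2 and Dlx3 were among the 4 genes with the largest differences. Msx1 (chromosome 5, 37820491 to 37824585, minus strand, GRCm38.p6) encodes a homeodomain repressor induced by BMP signals in skin and teeth. It read 1.54 and 0.429 CPM in quiescent McSC replicates 1 and 2 and 84.4, 79.9 and 116 CPM in melanocyte replicates 1 to 3. The 2 stem cell libraries held 96 and 48 counts of it. Its log2 fold change was 6.64 ± 0.61 SE (edgeR adjusted p = 0.000393), that is 99.5-fold. Msx2 (chromosome 13, 53466881 to 53472780, minus strand) encodes the closest relative of Msx1, which acts in the matrix and is needed to keep the hair cycle going. Quiescent McSC libraries read 5.71 and 3.07 CPM and melanocyte libraries 213, 238 and 202 CPM, so that the 3 melanocyte values lay close together and far above the others. Its log2 fold change was 5.64 ± 0.33 SE (edgeR adjusted p = 9.21e-05). Dlx3 (chromosome 11, 95120117 to 95125296, plus strand) encodes a homeodomain protein required for formation of the hair shaft and inner root sheath. It was at 5.76 and 1.60 CPM in the quiescent libraries and 535, 430.2 and 442 CPM in the melanocyte libraries (log2 fold change 7.02 ± 0.66 SE, edgeR adjusted p = 0.000422). Quiescent McSC replicate 1 was higher than replicate 2 for all 3 genes, by 1.77 (Msx1), 0.89 (Msx2) and 1.83 (Dlx3) on the log2 scale. Leaving out quiescent McSC replicate 2 moved the log2 fold change to 5.92 for Msx1, 5.25 for Msx2 and 6.35 for Dlx3. Leaving out replicate 1 moved it to 7.76, 6.14 and 8.19, and all 3 genes were called in both cases.

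The start regions of the Msx pair are shown because both genes differed strongly and are relatives. Each sequence runs 5′ to 3′ on the gene's strand from 250 bases before the start to 50 bases after it (RefSeq, GRCm38.p6), with matches to the searched motifs in capitals. Msx1 is chr5:37824536-37824835, minus strand, and Msx2 is chr13:53472731-53473030, minus strand.
Msx1: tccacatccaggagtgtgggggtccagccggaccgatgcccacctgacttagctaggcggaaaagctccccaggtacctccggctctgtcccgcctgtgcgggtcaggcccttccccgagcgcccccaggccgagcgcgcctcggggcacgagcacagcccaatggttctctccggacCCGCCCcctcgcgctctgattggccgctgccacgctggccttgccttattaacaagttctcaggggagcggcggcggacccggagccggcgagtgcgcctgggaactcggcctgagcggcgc
Msx2: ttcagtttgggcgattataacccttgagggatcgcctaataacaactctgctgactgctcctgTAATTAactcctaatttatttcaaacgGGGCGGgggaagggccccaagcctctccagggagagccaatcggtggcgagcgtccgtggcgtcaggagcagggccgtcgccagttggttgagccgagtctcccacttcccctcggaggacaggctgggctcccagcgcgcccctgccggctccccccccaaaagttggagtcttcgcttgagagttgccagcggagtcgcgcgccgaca
The capitals in Msx1 mark the reverse complement of GGGCGG, the GC box. Those in Msx2 mark TAATTA, a core read by many homeodomain proteins, at 187 bases before the start, and a GC box.

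The forkhead genes Foxn1 and Foxq1 differed in level but both were higher in melanocytes. Foxn1 (chromosome 11, 78357577 to 78386783, minus strand) encodes the regulator of hair keratin genes that is lost in nude mice. It read 1.54 and 1.21 CPM in the quiescent libraries and 25.8, 25.4 and 17.9 CPM in the melanocyte libraries, with melanocyte replicate 3 the lowest of its group. Its log2 fold change was 4.08 ± 0.28 SE (edgeR adjusted p = 0.000159). Foxq1 (chromosome 13, 31558170 to 31560976, plus strand) encodes a factor of the hair medulla. It was at 1.89 and 1.39 CPM in the quiescent libraries and at 162, 199.6 and 188 CPM in the melanocyte libraries, a 113-fold difference (log2 fold change 6.81 ± 0.22 SE, edgeR adjusted p = 3.65e-05). The standard error of Foxq1 was smaller than those of Msx1 and Dlx3, and its 2 quiescent McSC values differed by 0.43 on the log2 scale. In GENCODE M21 the gene A530084C06Rik overlaps exons of Foxq1 on the opposite strand over 3200 bases, and reads of these genes cannot be told apart in non-stranded libraries. The start region of Foxn1 (chr11:78386559-78386858, minus strand) is shown because it holds the same homeodomain core as that of Msx2.
Foxn1: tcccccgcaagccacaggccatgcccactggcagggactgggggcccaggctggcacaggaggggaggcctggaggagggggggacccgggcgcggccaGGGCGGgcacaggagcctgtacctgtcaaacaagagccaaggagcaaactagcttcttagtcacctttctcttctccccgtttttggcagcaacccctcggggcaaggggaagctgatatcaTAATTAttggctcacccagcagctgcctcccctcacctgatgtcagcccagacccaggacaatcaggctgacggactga
Its capitals mark a GC box and, 29 bases before the start, TAATTA.

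Sox21 differed by about as much as Foxn1, and Prdm1 by less. Sox21 (chromosome 14, 118233233 to 118237030, minus strand) encodes an HMG-box factor of the hair shaft cuticle. It read 7.11 and 4.36 CPM in the quiescent libraries and 102, 74.2 and 129 CPM in the melanocyte libraries (log2 fold change 4.16 ± 0.35 SE, edgeR adjusted p = 0.000301). The long non-coding gene Gm4675 shares 713 exon bases with Sox21 on the opposite strand and had 14 to 109 counts per library. Prdm1 (chromosome 10, 44437174 to 44528558, minus strand) encodes the repressor Blimp1, known in the inner root sheath, the sebaceous gland and the dermal papilla as well as in plasma cells. It read 13.1 and 9.26 CPM in the quiescent libraries and 115, 109.95 and 66.6 CPM in the melanocyte libraries (log2 fold change 3.12 ± 0.31 SE, edgeR adjusted p = 0.000508). Its melanocyte values had the widest spread relative to their mean among the 10 genes, with a coefficient of variation of 27.3%. Melanocyte replicate 3 was the lowest of its group for Prdm1 and the highest for Sox21. The start region of Sox21 (chr14:118236981-118237280, minus strand) is shown because it was the only one among the members with an entry to hold a LEF/TCF core.
Sox21: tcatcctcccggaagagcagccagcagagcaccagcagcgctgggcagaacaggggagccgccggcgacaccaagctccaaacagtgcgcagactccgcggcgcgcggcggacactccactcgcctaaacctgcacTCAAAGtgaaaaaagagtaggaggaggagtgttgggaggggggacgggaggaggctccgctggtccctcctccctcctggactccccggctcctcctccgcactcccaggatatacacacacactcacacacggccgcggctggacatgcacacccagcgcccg
Its capitals mark TCAAAG, the reverse complement of CTTTGA, 114 bases before the start.

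Gata3, Vdr and Lhx2 were readily measured in quiescent McSC and differed least. Gata3 (chromosome 2, 9857078 to 9887953, minus strand) encodes a zinc finger factor that specifies the inner root sheath and is also central to T cells. It read 23.5 and 27.1 CPM in the quiescent libraries and 114, 77.8 and 99.9 CPM in the melanocyte libraries (log2 fold change 1.94 ± 0.19 SE, edgeR adjusted p = 0.000504). It was the only member whose level was higher in quiescent McSC replicate 2 than in replicate 1. The gene 9230102O04Rik shares 77 exon bases with Gata3 and Gm13256 another 155, the latter on the opposite strand. Vdr (chromosome 15, 97854427 to 97908296, minus strand) encodes the vitamin D receptor, a nuclear receptor that the hair cycle requires after birth. It read 45.7 and 37.9 CPM in the quiescent libraries and 178, 152 and 121 CPM in the melanocyte libraries (log2 fold change 1.85 ± 0.20 SE, edgeR adjusted p = 0.000663). Lhx2 (chromosome 2, 38339271 to 38369737, plus strand) encodes a LIM homeodomain factor known from hair follicle stem cells and the early hair bud. It read 35.1 and 26.6 CPM in the quiescent libraries and 69.5, 47.8 and 67.6 CPM in the melanocyte libraries. Melanocyte replicate 2 was the lowest of its group, and the groups did not overlap. The log2 fold change of Lhx2 was 1.00 ± 0.22 SE (edgeR adjusted p = 0.00948), and it was not called once quiescent McSC replicate 2 was left out (log2 fold change 0.81, adjusted p = 0.0717). Over the 12 alternative settings its adjusted p reached no higher value than this, and the other 9 genes were called in all 12. The start region of Vdr (chr15:97908247-97908546, minus strand) is shown as that of a gene with a small difference.
Vdr: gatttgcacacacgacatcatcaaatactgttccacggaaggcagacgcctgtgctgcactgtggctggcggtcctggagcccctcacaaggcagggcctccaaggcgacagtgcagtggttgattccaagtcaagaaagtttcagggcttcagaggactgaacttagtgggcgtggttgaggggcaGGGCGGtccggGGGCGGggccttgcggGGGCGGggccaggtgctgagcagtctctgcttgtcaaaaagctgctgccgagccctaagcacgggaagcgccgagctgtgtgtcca
Its capitals mark 3 GC boxes.

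**Figure D2:**
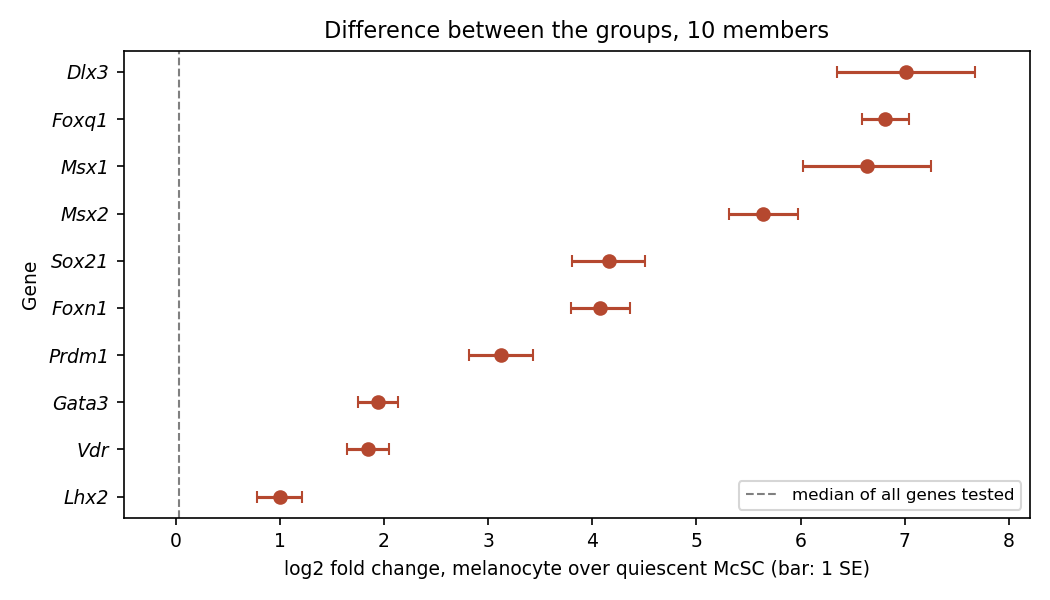
Log2 fold change of melanocytes over quiescent McSC for each of the 10 genes, with bars of 1 SE from the edgeR fit and a dashed line at the median of all genes tested (0.03). The genes run from Lhx2 at 1.00 to Dlx3 at 7.02, and the widest bars belong to Dlx3 and Msx1.

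RefSeq start regions were held for 8 of the 10 genes, in 9 entries since Lhx2 has a pair of starts. They were searched on both strands for 7 short motifs, set beside 32851 mouse start regions of the same length. The core of MSX and DLX proteins, TAATTG, occurred in 8.0% of all start regions. The related core of many homeodomain proteins, TAATTA, occurred in 5.29%. The LEF and TCF core CTTTGA was held by 16.0% of them. The GATA core AGATAA was held by 11.2%, and the nuclear receptor core, AGGTCA, by 16.3%. The SMAD motif GTCTAGAC was rare at 0.213%, and the GC box GGGCGG was frequent at 35.7%. TAATTA was found in Msx2 and Foxn1, and CTTTGA in Sox21. GGGCGG was found in the regions of Gata3, Msx1, Foxn1, Msx2 and Vdr. For Lhx2 it was found in the region at chr2:38339031-38339330 but not in the other. The members' regions were 59.7% to 74.7% GC, against a median of 52.7% over all start regions, and the shares above are not matched for GC. The MSX and DLX core, the GATA core, the nuclear receptor core and the SMAD motif had no match in these windows, and no match overlapped another.

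Levels were compared between genes as CPM per kilobase of exon. In melanocytes Dlx3 stood highest at 179.9 ± 22.1 CPM per kb (SD, n = 3), followed by Msx2 at 88.7 ± 7.40 and Foxq1 at 65.3 ± 6.80. The ranges of Dlx3 and Msx2 did not meet, nor did those of Msx2 and Foxq1. Foxq1 and Msx1 (48.3 ± 10.1) overlapped. Vdr (34.4 ± 6.57), Gata3, Sox21, Lhx2 and Prdm1 (18.1 ± 4.94) formed a run in which each overlapped the next, and Foxn1 lay below them all at 7.17 ± 1.39 CPM per kb. In quiescent McSC the order was another. Vdr (9.57 ± 1.27 CPM per kb, SD, n = 2), Lhx2 (9.17 ± 1.78) and Gata3 (7.87 ± 0.807) stood highest and overlapped in sequence, and Gata3 lay apart from Prdm1 (2.08 ± 0.507). From Prdm1 down to Foxn1 (0.427 ± 0.0736) each gene overlapped its neighbour. Dlx3, the highest in melanocytes, was the seventh in quiescent McSC at 1.41 ± 1.13 CPM per kb. Exon lengths came from GENCODE M21, or from the RefSeq gene span where that was shorter, as for Foxq1 (2807 against 4843 bases). The place of Foxq1 in melanocytes rests on the shorter length, and its value would be lower with the longer length.

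Relatives of the 10 genes in the same families went in both directions. Of 28 relatives, 16 passed the filter, of which 5 were called higher in melanocytes, 4 lower and 7 were not called. Among all genes tested, 29.1% were higher and 26.2% lower. Dlx1, Dlx2 and Dlx4, homeobox genes related to Dlx3, were higher in melanocytes. Dlx2 read 2.02 and 0.339 CPM in the quiescent libraries and 129, 131 and 183 CPM in the melanocyte libraries (log2 fold change 7.05 ± 0.80 SE, edgeR adjusted p = 0.00081). Dlx4, whose gene lies 15150 bases from Dlx3 on chromosome 11, read 0.946 and 0.161 CPM and 90.5, 80.5 and 70.7 CPM (7.31 ± 0.73 SE, edgeR adjusted p = 0.000509). Dlx1, 9426 bases from Dlx2 on chromosome 2, differed by 5.20 ± 0.63 SE. Quiescent McSC replicate 1 exceeded replicate 2 for Dlx1, Dlx2 and Dlx4, as it did for Dlx3. Leaving out replicate 1 moved the log2 fold changes to 6.48 (Dlx1), 8.75 (Dlx2) and 8.95 (Dlx4), and leaving out replicate 2 to 4.47, 6.19 and 6.41, all of them still called. Dlx5 was not called, at 1.12 ± 0.393 CPM in the quiescent libraries and 2.16 ± 0.363 CPM in the melanocyte libraries (0.96 ± 0.39 SE, edgeR adjusted p = 0.0776), and Dlx6 had 4 counts over all 5 libraries. Of the counts assigned to the 6 Dlx genes, Dlx3 held 58.7% to 66.2% in melanocyte libraries and 45.5% to 46.3% in quiescent McSC libraries. Msx3, the third Msx gene, had 9 counts over all libraries.

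Beside Gata3, Gata2 was higher in melanocytes at a low level (2.06 ± 0.757 against 0.117 ± 0.0390 CPM, 4.15 ± 0.58 SE), and Gata5 and Gata6 were not called, with means of 0.523 and 0.718 CPM in melanocytes. Lhx6 was the other relative called higher in melanocytes, at 0.541 ± 0.191 CPM against 0.0544 ± 0.0138 CPM in quiescent McSC. Gata2 and Lhx6 passed the filter through the melanocyte libraries alone, so they could only be called in that direction. Prdm4, a relative of Prdm1, was lower in melanocytes, with 94.6 ± 2.26 CPM in the quiescent libraries and 62.04 ± 2.91 CPM in the melanocyte libraries (-0.61 ± 0.10 SE, edgeR adjusted p = 0.00285). Prdm16 and Nr1h3, a nuclear receptor gene related to Vdr, were also called lower in melanocytes. Neither was called once quiescent McSC replicate 1 or 2 was left out, where 2 relatives were called lower. The call of Prdm16 was also lost with library size only, in the block fit, and without melanocyte replicate 2 or 3. Foxn2 (-0.07 ± 0.16 SE) and Foxn3 (0.06 ± 0.15 SE), relatives of Foxn1, were not called. Sox2 was at 0.176 and 0.0625 CPM in the quiescent libraries and at 2.54, 0.337 and 0.267 CPM in the melanocyte libraries and was not called (edgeR adjusted p = 0.0683). Sox14, the closest relative of Sox21, had 5 counts over all libraries.

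**Figure D3:**
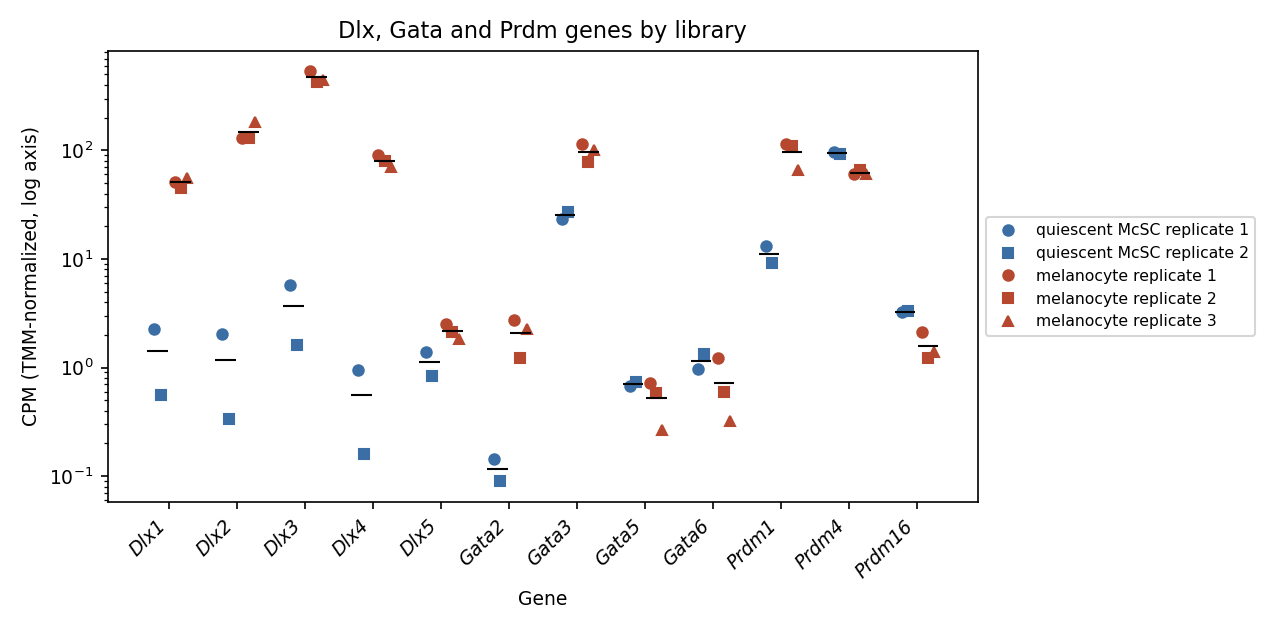
Level of Dlx, Gata and Prdm family genes in each library, in TMM-normalized CPM on a log axis, with blue points for the 2 quiescent McSC libraries, red points for the 3 melanocyte libraries and black lines for group means. Dlx1 to Dlx4, Gata2, Gata3 and Prdm1 stand higher in melanocytes, and Prdm4 and Prdm16 lower.

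Other transcription factors of the hair matrix and shaft were mostly higher in melanocytes. Of 14 such genes, all of them tested, 13 were called higher and 1 lower (median log2 fold change 2.61), beside 29.1% higher and 26.2% lower among all genes tested. Without quiescent McSC replicate 1 or 2, 10 were called higher. Hoxc13, the homeobox regulator of hair keratin genes, read 14.7 and 10.6 CPM in the quiescent libraries and 190.4, 178 and 175 CPM in the melanocyte libraries (3.84 ± 0.19 SE, edgeR adjusted p = 6.4e-05). Cux1, a homeobox repressor, was at 80.9 ± 4.17 CPM in the quiescent libraries and 445 ± 13.6 CPM in the melanocyte libraries (2.46 ± 0.13 SE). Trp63, the epithelial member of the p53 family, was at 83.6 ± 8.47 and 605 ± 56.4 CPM (2.86 ± 0.16 SE). Lef1, used for the melanocyte gate, is in this list as well, so its call cannot be read apart from that gate. Foxe1 read 0.0642 and 0.0268 CPM in the quiescent libraries and 2.84, 3.50 and 15.2 CPM in the melanocyte libraries. It passed the filter through the melanocyte libraries alone, so it could only be called higher. The gene lower in melanocytes was Foxi3, a forkhead factor of hair placodes and matrix, at 2.53 ± 1.07 CPM in the quiescent libraries and 0.282 ± 0.229 CPM in the melanocyte libraries (-3.35 ± 0.73 SE, edgeR adjusted p = 0.00963). It was not called once quiescent McSC replicate 1 was left out (adjusted p = 0.0623).

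Transcription factors of the follicle stem cell and outer root sheath compartments did not share this direction. Of 8 genes, 1 was called higher in melanocytes, 4 lower and 3 were not called, beside 29.1% higher and 26.2% lower among all genes tested (median -1.03). Nfatc1, a factor of quiescent bulge stem cells, was at 124 ± 3.24 CPM in the quiescent libraries and 11.3 ± 4.28 CPM in the melanocyte libraries (-3.48 ± 0.29 SE, edgeR adjusted p = 0.000299). Foxc1 differed by -3.14 ± 0.30 SE and Klf5 by -1.72 ± 0.13 SE. Hopx was the gene higher in melanocytes (1.81 ± 0.16 SE). Without melanocyte replicate 2 the number called higher was 2. Sox9, a factor of the outer root sheath and bulge, read 23.2 and 25.2 CPM in the quiescent libraries and 17.3, 3.68 and 6.47 CPM in the melanocyte libraries, and was not called (edgeR adjusted p = 0.0937). Lhx2, which is known from the same compartment, went toward melanocytes like the matrix factors but by the smallest amount of the 10 genes.

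**Figure D4:**
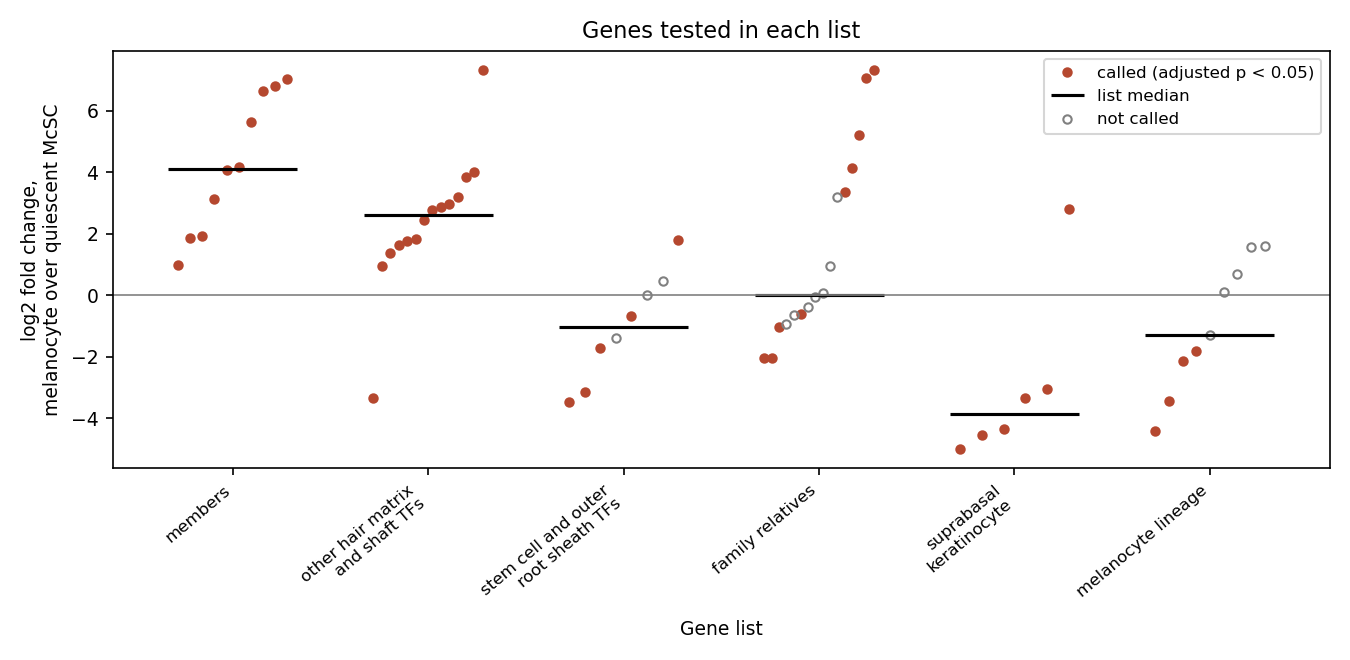
Log2 fold change of melanocytes over quiescent McSC for every tested gene of 6 lists, with filled red points for genes called at an adjusted p under 0.05, open grey points for the others and black bars for list medians. The median is 4.12 for the 10 members and 2.61 for the other matrix and shaft factors, and it lies below 0 for the stem cell and outer root sheath factors (-1.03).

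Partners of the vitamin D receptor and genes of vitamin D metabolism were not called in 1 common direction. Of 7 genes 6 were tested, with 2 called higher in melanocytes, 2 lower and 2 not called, shares close to the 29.1% higher and 26.2% lower among all genes tested. Hr, the corepressor hairless that acts with Vdr in the follicle, read 133 and 149.99 CPM in the quiescent libraries and 571, 441 and 432 CPM in the melanocyte libraries (1.77 ± 0.18 SE, edgeR adjusted p = 0.000567), a difference close in size to that of Vdr (1.85). Among the retinoid X receptors, with which Vdr pairs on DNA, Rxra was higher in melanocytes (216 ± 23.8 against 157 ± 11.4 CPM, 0.46 ± 0.14 SE), and Rxrb (-0.60 ± 0.15 SE) and Rxrg (-2.99 ± 0.43 SE) were lower. The call of Rxra was lost when replicate number entered as a block (adjusted p = 0.0747), and when quiescent McSC replicate 1, its replicate 2 or melanocyte replicate 2 was left out. That of Rxrb was lost with library size only, in the block fit, and when quiescent McSC replicate 2 was left out. Cyp24a1, the classic target gene of the receptor, had 6 counts over all libraries and did not pass the filter, so no change in it could be measured.

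Levels of the 10 genes within each group were set beside those of markers of other cells. The melanocyte-lineage markers of melanocyte replicate 1 had a median log2 ratio of -2.60 to replicate 3, and the dermal papilla and fibroblast markers one of 1.94. In the same pair of libraries the 10 transcription factors had a median of 0.13, with a range from -0.46 (Msx1) to 0.78 (Prdm1). Hair shaft keratins stood at -0.19 and inner root sheath genes at -0.38. In the other melanocyte pairs the keratins had medians of 1.00 (replicate 2 over 3) and -1.42 (1 over 2), against 0.02 and 0.15 for the 10 genes. The 10 genes ranged from -0.80 (Sox21) to 0.72 (Prdm1) for 2 over 3. For 1 over 2 they ranged from -0.30 (Foxq1) to 0.55 (Gata3). Melanocyte replicate 1 had the lowest summed level of pigment genes, and its ratios for the 10 genes are those given above. Without that library all 10 genes were called. The part of pigment cells in the levels of the 10 genes was not tested. In quiescent McSC, 9 of the 10 genes were lower in replicate 2 than in replicate 1, with a median log2 ratio of 0.47 for replicate 1 over 2, against -0.01 for all genes tested. Inner root sheath genes had a median of 1.01 in that pair, dermal papilla and fibroblast markers of 1.00 and suprabasal keratinocyte markers of -0.99. Hair shaft keratins had a median of 0.0 in that pair. Their sum was 22.1 CPM in replicate 1, mostly from Krt35 (20.2 CPM), and 3.22 CPM in replicate 2. The sum thus differed mainly through Krt35 and not through the keratins as a class. The part of this difference in the levels of the 10 genes was not tested.

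**Figure D5:**
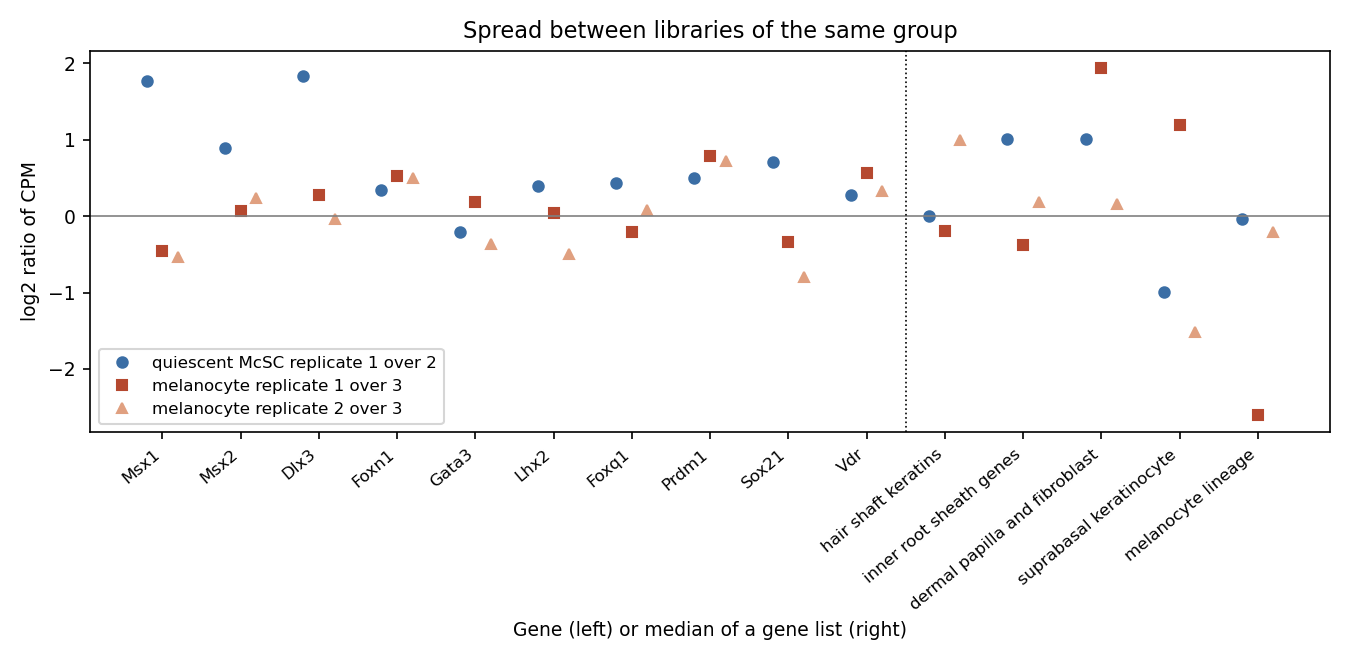
Log2 ratio of CPM between libraries of the same group for each of the 10 genes (left of the dotted line) and as the median of 5 marker lists (right), with blue points for quiescent McSC replicate 1 over 2 and red and orange points for melanocyte replicates 1 and 2 over 3. Melanocyte replicate 1 stands at -2.60 for melanocyte-lineage markers, whereas the 10 genes stay between -0.46 and 0.78 in that pair.

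Marker lists of several cell types differed between the groups as well. The counts called below stand beside 29.1% higher and 26.2% lower in melanocytes among all genes tested. All 14 hair shaft keratins tested and all 9 inner root sheath genes were called higher in melanocytes. Several of these passed the filter through the melanocyte libraries alone, and Krt34, Krt39 and Krt40 had no count in either quiescent McSC library. Tchh, the trichohyalin gene of the inner root sheath and medulla, averaged 1579.7 ± 575 CPM in melanocytes against 2.54 ± 0.443 in quiescent McSC. Of the 8 dermal papilla and fibroblast markers 7 were higher, Lum among them (7.70 ± 0.67 SE), and all 5 muscle and pericyte markers were higher (4.60 to 4.87 CPM in the quiescent libraries and 104 to 235 CPM in the melanocyte libraries). Lum, the muscle marker Des and the endothelial marker Cdh5 also passed the filter through the melanocyte libraries alone. Suprabasal keratinocyte markers went the other way, with 5 of 6 lower in melanocytes. Their sums were 1146 to 2203 CPM in the quiescent libraries and 129 to 234 CPM in the melanocyte libraries. Of 6 basal keratinocyte markers 3 were higher and 2 lower, with sums of 1831 to 2132 CPM in the quiescent libraries and 2345 to 3370.2 CPM in the melanocyte libraries. Of 6 sebaceous gland markers 1 was higher and 4 lower (306 to 351 CPM in the quiescent libraries and 143 to 212 CPM in the melanocyte libraries). Lymphoid and plasma cell markers are relevant to Gata3 and Prdm1. Their sums were 1.54 to 1.96 CPM in the quiescent libraries and 2.39 to 4.74 CPM in the melanocyte libraries. Of 8 tested, 1 was called higher, Ptprc, which encodes CD45, the blood cell marker of the gate. The other 7 were not called, and Cd3e had no count in quiescent McSC replicate 1. Of 5 myeloid and Langerhans cell markers tested 2 were higher and 2 lower (25.6 to 34.6 CPM in the quiescent libraries and 37.99 to 62.1 CPM in the melanocyte libraries). Of 5 endothelial markers 4 were higher and 1 lower (8.90 to 11.4 CPM in the quiescent libraries and 15.4 to 36.2 CPM in the melanocyte libraries). The genes of CD140a, CD31 and CD45, which the gate was set to exclude, were each called higher in melanocytes. Pdgfra (CD140a) averaged 38.8 ± 31.6 against 0.537 ± 0.443 CPM in quiescent McSC. Pecam1 (CD31) averaged 10.1 ± 4.79 against 0.442 ± 0.0813 CPM, and Ptprc (CD45) 1.87 ± 0.950 against 0.171 ± 0.0608 CPM. Of 3 Merkel cell markers tested 1 was higher (1.01 to 2.07 CPM in the quiescent libraries and 2.46 to 4.61 CPM in the melanocyte libraries). Not all these marker calls held over the alternative settings. Those of Col17a1, Cd68, Krt79, Mgst1 and Elovl3 were lost in some settings that kept both quiescent McSC libraries. Calls of Krt5, Krt20, Esam and Cd207 were lost only when a quiescent McSC library was left out. Of the 9 melanocyte-lineage markers none was called higher and 4 were lower in melanocytes (Mitf, Sox10, Kit and Pax3), with 5 not called. For Tyr, Tyrp1, Pmel and Mlana, melanocyte replicate 1 lay below both quiescent McSC libraries, and melanocyte replicates 2 and 3 lay above both. Tyr read 400 and 334 CPM in the quiescent libraries and 219, 1456 and 1676 CPM in the melanocyte libraries. Dct was lower in every melanocyte library than in both quiescent McSC libraries. Sox10 was not called when quiescent McSC replicate 1, its replicate 2 or melanocyte replicate 2 was left out (adjusted p = 0.0574, 0.158 and 0.0861). The part of these cells in the levels of the 10 genes was not tested.

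The genes most like each member were sought by the smallest root mean square distance between centred log2 CPM profiles over the 5 libraries, among 11480 genes with at least 5 CPM on average. The nearest to Dlx3 was its neighbour Dlx4 (distance 0.223 on the log2 scale), followed by Kif26a and the inner root sheath keratin Krt28. Krt28 was also the second nearest to Msx1, after Mrc1, a macrophage receptor gene, at 0.303. Msx2 lay nearest to E2f8 (0.111), Ccnb1 and Top2a, genes of the dividing cell, and Sox21 to Cenpk (0.160), Spc24 and Mxd3. Foxn1 lay nearest to Gria3, Dock8 and Pthlh, the last encoding a hormone-like peptide, at 0.119 for the first. Foxq1 was nearest to Fndc1 (0.177) and Fgf5, the growth factor that ends the hair growth phase. Lhx2 was nearest to Nfib (0.0860), Gata3 to Gm38426 (0.0790), Prdm1 to Rassf6 (0.115) and Vdr to Pycr1 (0.0528). These distances describe 5 libraries in 2 groups, and many genes share such a profile.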

How the data were processed

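RNA sequencing counts per gene were analysed for 2 quiescent McSC and 3 melanocyte libraries. The counts are raw whole numbers as deposited by the authors, listed by Entrez identifier. Per the submitters' processing notes, the build was mm10 and the tools included STAR 2.5.2a and Salmon 0.8.2; which program counted genes, and with which annotation, is not given here. Symbols came from RefSeq (GRCm38.p6, the same build), which matched 24045 of 24100 identifiers.

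Total counts ranged from 17512381 to 124530834, so low genes are measured less precisely in melanocyte replicate 3. Genes were filtered with filterByExpr, scaled by TMM and tested with the two-sided quasi-likelihood test of edgeR 4.0.16 in R 4.3.3, with Benjamini-Hochberg adjustment over 16953 genes and a threshold of 0.05. SE is the absolute log2 fold change divided by the square root of F. Values are mean ± SD (n = 2 and n = 3) unless stated. The labels call the libraries biological replicates of pooled males. The procedure was run on simulated counts with few changed genes, balanced between directions, and the same dispersion for every gene. That run cannot show how the procedure does with a difference as broad as the one between these groups.

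Members, lists and tests were chosen with earlier results of these data known, and 2 of the motifs (TAATTA and GGGCGG) and the start regions shown were picked after the sequences were seen. Named genes were the 10 members, the 4 genes of lowest p per list, list members called against its majority, and the 3 nearest profiles per member; the other genes named to spell out a family or a count were added after their values were seen. Alternatives were RLE size factors, library size only, no filter, a filter of 5 CPM in 2 libraries, DESeq2 1.42.0, limma-voom (limma 3.58.1), the replicate number as a block, and leaving out each library. Of the list genes, Krt85 was not analysed here, and 1 family relative is counted but not reported here. Each library was counted as 1 replicate because the labels call them biological replicates. Counts of libraries of the same group differed by more than sampling noise, which by itself does not show that the pools were independent.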

Additional observations from a re-analysis of the deposited data

How the results depend on the processing

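All 10 transcription factors stayed higher in melanocytes in every alternative run, and 119 of 120 combinations of gene and alternative stayed called. The exception was Lhx2 without quiescent McSC replicate 2, which left 9 genes called; its lone stem cell library is then assumed to vary like the melanocyte libraries, and the cause was not tested. With 1 library left out at a time, the members called higher numbered 9 to 10 and those called lower 0. Log2 fold changes of the members over all alternatives ran from 5.92 to 7.76 for Msx1 and 6.35 to 8.19 for Dlx3, the widest ranges, and from 0.81 to 1.23 for Lhx2. Library size only moved the median of all genes to 0.26, and the members stayed higher relative to it. Among all genes, leaving out 1 library at a time gave 3310 to 5148 called higher and 2955 to 4857 called lower in melanocytes.

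With the stricter filter, 3 family relatives were called higher and 2 lower, and 0 of the other matrix and shaft factors were lower, since fewer genes were tested. Leaving out 1 library gave 2 to 4 relatives lower, 10 to 13 matrix and shaft factors higher and 0 to 1 lower, 1 to 2 stem cell and outer root sheath factors higher and 1 to 2 vitamin D receptor partners higher. With library size only, 1 vitamin D receptor partner was called lower. In the fit with replicate block, 1 partner was higher and 1 lower, and 7412 genes were called in all, against 9385. The labels do not say that a number marks a shared animal, litter or day. Deviations of same-numbered libraries from their group means correlated by 0.0404 (number 1) and -0.0552 (number 2) over 16953 genes. With 2 quiescent McSC libraries, the deviations of replicate 1 mirror those of replicate 2. These values therefore cannot decide whether a number marks a shared origin. The block left all 10 members called. Cyp24a1, Msx3, Dlx6 and Sox14 had 9 counts or fewer over all libraries and did not pass the filter.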
